A study of Mus musculus with 11 samples.

Results

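The 32 genes described here encode proteins of the S phase of the cell cycle, in which a dividing cell copies its DNA. They were chosen by name as genes of the MCM helicase, origin licensing, nucleotide supply, polymerases and repair, and each name matched 1 Ensembl identifier among the 39179 genes of the count table. All 32 passed the filter on low counts. RNA was measured in GFP-positive cells sorted by flow cytometry from CD1/Swiss mouse brains at postnatal day 2. The sorted tissue was the V-SVZ, a germinal layer that lines the lateral ventricles. The mutant group has 5 libraries of the genotype Gsh2-Cre; Zeb2fl/ko, with 1 floxed and 1 null allele of the transcription factor gene Zeb2. The control group has 6 libraries of the genotype Gsh2-Cre; Zeb2fl/wt. Both groups carry Gsh2-Cre, the RCE reporter that gives GFP after recombination, and a floxed Zeb2 allele, so recombined control cells have 1 intact Zeb2 allele rather than both, and mutant animals carry the null allele outside the driver's cells as well. GFP marks every descendant of a cell that expressed the driver, which includes dividing progenitors and young neurons alike. Since the labels do not tie libraries to separate animals, a p-value here measures the spread among libraries, which may be technical.

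Replication starts at origins, where the origin recognition complex with CDC6 and CDT1 loads the MCM2-7 ring onto DNA in G1. At the start of S phase CDC45 and the GINS complex join the ring to form the active helicase, and polymerase alpha with its primase starts each new strand. Most of these genes are transcribed by E2F factors as cells pass from G1 to S, and their mRNAs are low in cells that have left the cycle. In the neonatal V-SVZ the dividing cells include radial glia, transit-amplifying progenitors, young neuroblasts and oligodendrocyte precursors. In bulk RNA, fewer cells in S phase and less of an mRNA per cell cannot be told apart.

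E2F factors bind sites close to the start of such genes, so the 250 bases before each RefSeq start were searched on both strands for TTTCCCGC, TTTCGCGC, TTTGCCGC and TTTGGCGC. RefSeq promoter windows were found for 27 of the 32 members, and 9 of these 27 genes, or 33.3%, held a match, against 1.86% of all 32851 windows and 2.16% of all 27025 genes with a window. The 9 were Mcm5, Mcm6, Mcm7, Orc1, Cdc6, Pola1, Uhrf1, Hells and Dtl. A match is a description of these letters, and its absence says nothing on binding by the factor. The last 160 bases before the start are shown 5′ to 3′ for Mcm3 and Rrm1, the 2 members that passed the test below, for Cdc6, and for Mcm5 and Mcm6, which were picked after their matches were seen because both hold a pair of matches that overlap on opposite strands. Capitals mark the matches on either strand.
Mcm3, GRCm38.p6 chr1:20820313-20820472, minus strand: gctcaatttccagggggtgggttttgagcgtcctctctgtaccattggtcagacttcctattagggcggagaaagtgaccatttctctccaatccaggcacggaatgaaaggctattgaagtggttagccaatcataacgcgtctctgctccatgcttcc
Rrm1, GRCm38.p6 chr7:102441535-102441694, plus strand: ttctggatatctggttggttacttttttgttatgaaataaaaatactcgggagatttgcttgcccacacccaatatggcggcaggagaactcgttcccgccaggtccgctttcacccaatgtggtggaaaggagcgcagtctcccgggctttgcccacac
Cdc6, GRCm38.p6 chr11:98907991-98908150, plus strand: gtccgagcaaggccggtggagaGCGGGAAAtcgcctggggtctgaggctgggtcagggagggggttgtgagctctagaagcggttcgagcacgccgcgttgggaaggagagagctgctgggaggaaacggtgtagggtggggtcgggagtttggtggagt
Mcm5, GRCm38.p6 chr8:75109349-75109508, plus strand: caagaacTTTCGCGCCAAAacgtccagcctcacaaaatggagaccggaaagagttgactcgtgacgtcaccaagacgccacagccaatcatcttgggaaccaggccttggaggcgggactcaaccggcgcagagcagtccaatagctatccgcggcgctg
Mcm6, GRCm38.p6 chr1:128359706-128359865, minus strand: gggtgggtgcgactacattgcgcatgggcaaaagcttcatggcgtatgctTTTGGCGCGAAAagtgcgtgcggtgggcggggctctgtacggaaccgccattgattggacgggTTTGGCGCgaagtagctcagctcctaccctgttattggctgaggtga
Neither Mcm3 nor Rrm1 held a match. Cdc6 held 1, in a window that lies between annotated starts of the gene and is intronic for its longer transcripts. Mcm5 held 2, which overlap, and Mcm6 held 3, of which 2 overlap.

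Several library measures bear on what follows. Total counts ranged from 6833981 to 13073505. Zeb2 stood at 302 ± 71.5 CPM (counts per 1000000 of the library total, SD, n = 5) in the libraries labelled mutant and 239 ± 48.9 CPM (SD, n = 6) in controls, a difference that did not pass (log2 fold change 0.35, SE 0.165, edgeR adjusted p = 0.294). The count covers the whole gene and the labels do not give the deleted part, so it does not check the genotype, and the directions below rest on the labels. Summed over 4 genes of the Y chromosome, the 5 mutants, control 4 and control 5 had 0 counts, and the other 4 controls had 763 to 2716 counts. Sex as read from the counts is therefore uneven between the groups. Mutant 5 stood apart in the choroid plexus gene Ttr, at 193 CPM against at most 0.83 CPM in any other library, and in Gm42418, which took 12.2% of its counts against 6.25% to 9.79% elsewhere. The summed level of 7 microglial genes was 2.14 to 8.93 CPM in mutants and 0.501 to 9.72 CPM in controls, and that of 6 endothelial genes was 0.918 to 7.77 CPM in mutants and 1.14 to 5.19 CPM in controls, with Tek at 0 in all. All 12 young neuron markers and all 10 transit-amplifying progenitor markers reached 1 CPM.

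The replication genes were lower as a group in the mutant libraries, by a modest amount, and only Mcm3 and Rrm1 passed the test. The summed level of the 32 genes was 2425, 2806, 2313, 2747 and 2752 CPM in mutants 1 to 5, against 2955 to 3500 CPM in the 6 controls. The highest mutant library lay below the lowest control library. The means were 2609 ± 224 CPM in mutants and 3240 ± 190 CPM in controls, a difference of -19.5%. Scaled by TMM factors, which correct for composition, the gap nearly closed, with mutants at 2322 to 2906 CPM and controls at 2908 to 3528 CPM. No test was made of the sum, because the genes were chosen with earlier results of these data known.

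Gene by gene, 29 of the 32 members had a negative log2 fold change (mutant over control), and Hells, Ccne1 and Ccne2 had a positive one. Over all 14104 genes tested 52.2% had a negative log2 fold change. The median over the 32 was -0.30, against -0.02 over all genes tested, and the members ranged from -0.84 for E2f8 to 0.51 for Hells. Both ends depend on 1 library: E2f8 was at -0.53 without mutant 5, and Hells at 0.84 without control 2. By edgeR's quasi-likelihood test at an adjusted p of 0.05, 2 members were lower, 0 were higher and 30 did not pass, where 1.74% of all genes tested were called lower and 2.68% higher. With 2 of 32 called, little can be read from the count beside that background. At an unadjusted p of 0.05, 13 members were lower and 0 higher, and 8.35% of all genes tested were lower. Neither DESeq2 nor limma-voom called a member higher. DESeq2 called 4 members lower, where it called 3.31% of all genes with an adjusted p lower, and limma-voom called 5, where it called 2.66%. Among libraries without counts from the Y chromosome, 2 controls against 5 mutants, 0 members were called by edgeR where 1.46% of genes were, with 7 members lower and 0 higher at an unadjusted p of 0.05, where 4.97% of genes were lower. The median there was -0.33, and 28 of the 32 were negative. Mcm3 had a log2 fold change of -0.40 in these 7 libraries and Rrm1 one of -0.41, close to their values over all 11, but neither passed (edgeR adjusted p = 0.400 and 0.305).

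**Figure D1:**
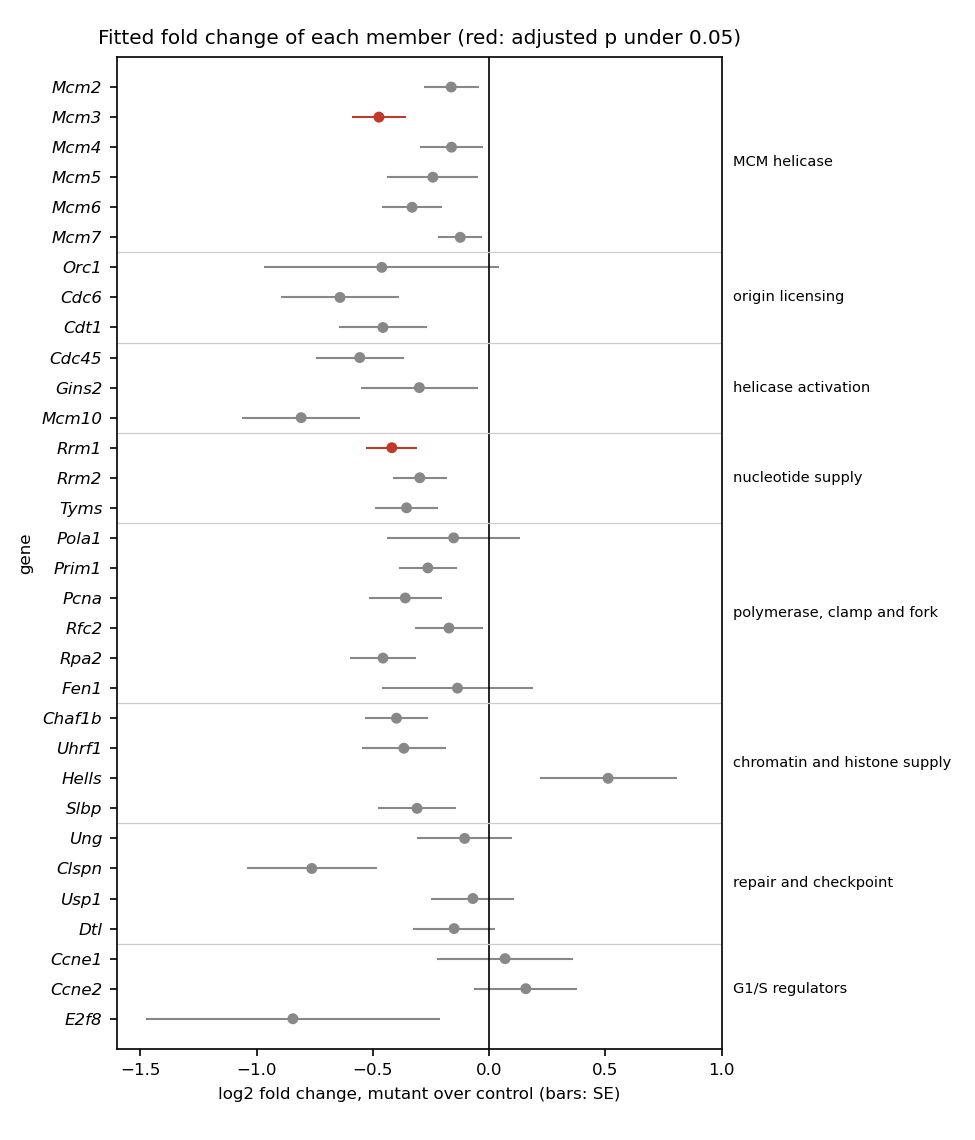
Fitted log2 fold change of each of the 32 members, mutant over control, with its standard error, grouped by function; red marks an adjusted p under 0.05. All but Hells, Ccne1 and Ccne2 lie left of 0, and Mcm3 and Rrm1 alone are red.

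Within single libraries, most members lay low in every mutant, but also in control 5. Of the 32 members, 28, 23, 28, 25 and 28 lay below the control mean in mutants 1 to 5, where 50.4% to 60.6% of all genes tested did. In the controls, set against the mean of the other 5, the number was 7 in control 4, 24 in control 5 and 15 to 19 in the others. Control 5 was thus the control most like the mutants, and mutant 2 the mutant most like the controls. Their median log2 ratios over the members were alike, at -0.172 in control 5 and -0.168 in mutant 2. Of all genes tested, 50.5% lay below in control 5 and 56.8% in mutant 2. These counts by library therefore do not separate the groups. The median log2 ratio of the members was lowest in mutant 3, at -0.55, where 10 members had their lowest value of all libraries. Every mutant library lay below the control mean for 16 of the 32 members, and for 17.6% of all genes tested. Every mutant library lay below every control library for 2 members, Mcm3 and Rrm1, and above for 0, where 2.32% of all genes tested lay wholly below and 2.67% wholly above.

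**Figure D2:**
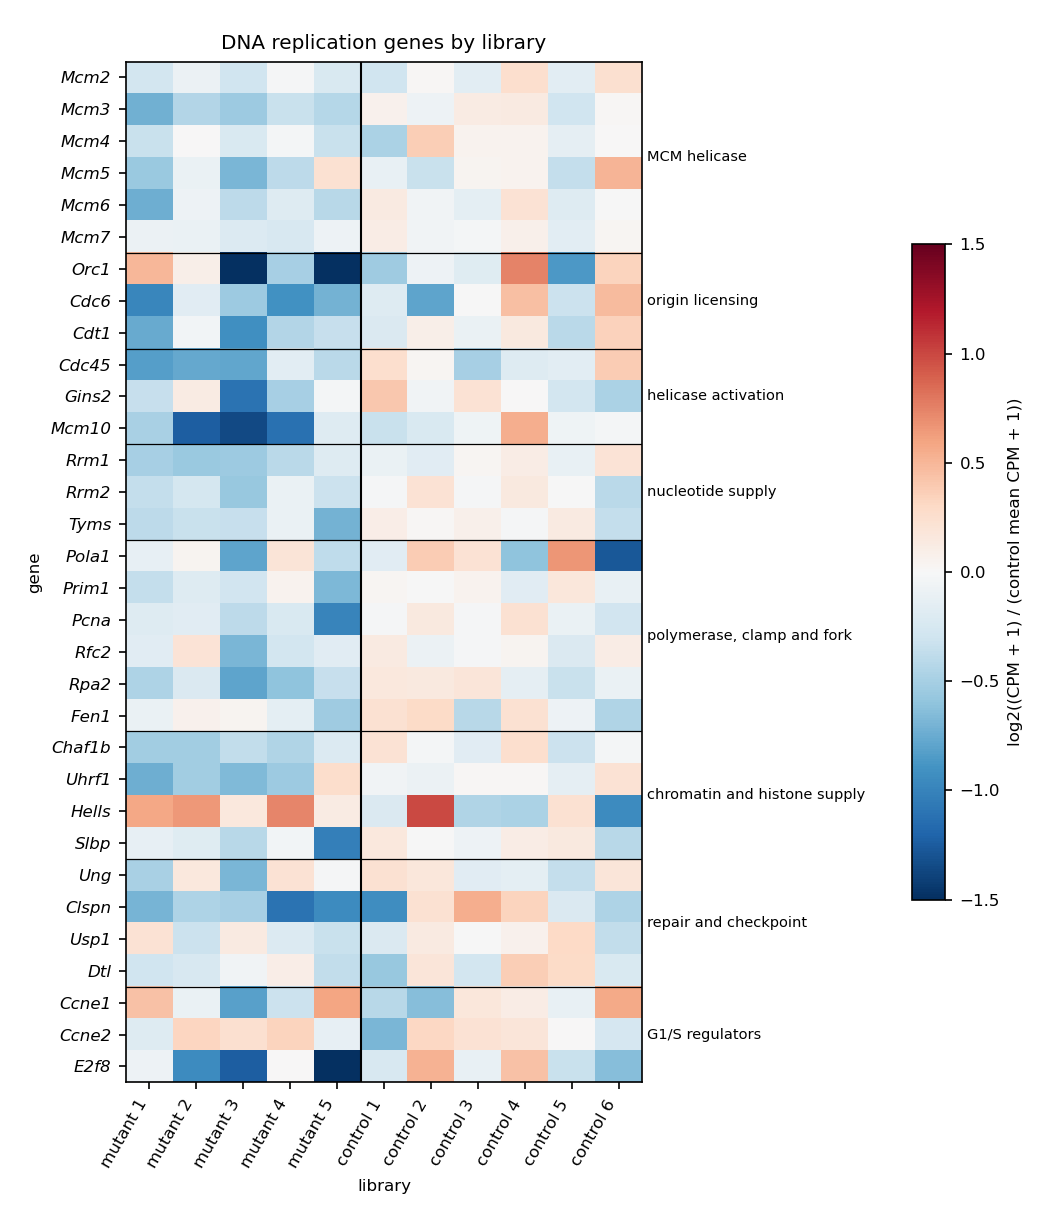
Level of each member in each library as log2((CPM + 1) / (control mean CPM + 1)), with rows grouped by function, the 5 mutant libraries left of the line and the 6 controls right of it; the colour scale ends at -1.5 and 1.5. Most mutant squares are blue, with Hells red in all 5 mutants and Uhrf1, Mcm5 and Ccne1 red in mutant 5.

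The MCM2-7 ring is the replicative helicase, built from 6 related subunits in equal number. Mcm3 (ENSMUSG00000041859, chromosome 1, 20802968 to 20820312, minus strand, GRCm38) had 111, 134, 125, 145 and 135 CPM in mutants 1 to 5. In the 6 controls it ranged from 148 to 200 CPM with a median of 188 CPM. The groups did not overlap, although mutant 4 and control 5 lay close together. Mcm3 fell in the mutants, at 130 ± 12.97 CPM (SD, n = 5) against 183 ± 19.9 CPM (SD, n = 6) in controls (log2 fold change -0.47, SE 0.115, edgeR adjusted p = 0.0300). Each library gave 1147 to 2082 counts of Mcm3, so counting error is small beside the spread between libraries. The call was lost in 6 of the 11 fits that left out 1 library, namely control 1, 3 or 4 or mutant 1, 2 or 3, with log2 fold changes from -0.53 to -0.41 over the 11.

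The other 5 subunit genes did not pass. Mcm6 averaged 257 ± 43.3 CPM in mutants and 327 ± 36.5 CPM in controls (log2 fold change -0.33, SE 0.128, edgeR adjusted p = 0.187), with 3 of 5 mutants below the lowest control. Mcm5 averaged 241 ± 65.1 CPM in mutants and 290 ± 69.1 CPM in controls and varied most among the 6, with its highest mutant value, 341 CPM, in mutant 5 and its highest control value, 415 CPM, in control 6. Mcm2, Mcm4 and Mcm7 had log2 fold changes of -0.16, -0.16 and -0.12. Mcm7 also shares 2157 bases at 97.7% identity with the pseudogene Gm5487, and Cops6 and Ap4m1 overlap its exons from the opposite strand, which leaves its counts uncertain.

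Levels were set per kilobase of exon, with the length taken over all annotated exons of a gene. This length, from 3589 bases for Mcm4 to 6956 for Mcm2, can exceed that of the mRNA made. The order between genes thus depends on the annotation, whereas the comparison of groups within a gene does not. In mutants Mcm5 and Mcm6 stood highest, at 60.5 ± 16.3 and 55.1 ± 9.27 CPM per kb, followed by Mcm7 at 43.6 ± 2.21, Mcm2 at 34.9 ± 3.01, Mcm3 at 34.7 ± 3.46 and Mcm4 at 30.1 ± 3.46 CPM per kb. In controls the order was Mcm5 at 72.6 ± 17.3, Mcm6 at 70.1 ± 7.83, Mcm3 at 48.7 ± 5.29, Mcm7 at 48.1 ± 3.16, Mcm2 at 39.5 ± 6.31 and Mcm4 at 34.1 ± 6.40 CPM per kb. Mcm5 and Mcm6 did not differ beyond their spread in either group. Mcm3 lay beside Mcm2 in the mutants and beside Mcm7 in the controls. Mcm5 or Mcm6 was highest in all 11 libraries, and Mcm4 was lowest in 10.

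**Figure D3:**
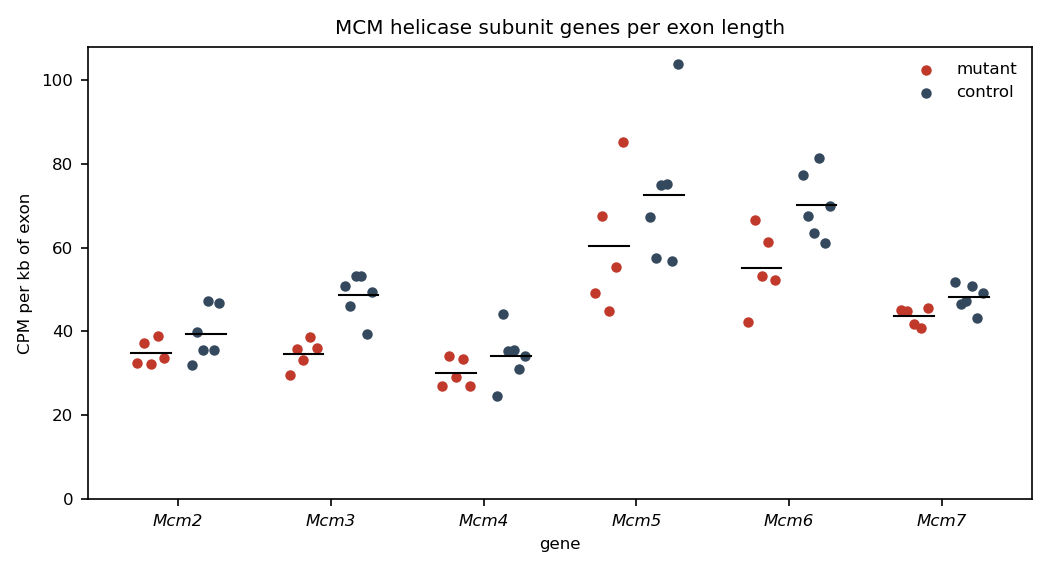
Level of the 6 MCM subunit genes in CPM per kilobase of annotated exon; each point is a library, mutants left of controls, and lines mark group means. With lengths over all annotated exons, Mcm5 and Mcm6 are highest in both groups, and Mcm3 is the gene whose mutant points all lie below its control points.

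Loading of the ring needs the ATPases ORC1 and CDC6 and the loader CDT1. None of these 3 genes passed by edgeR, DESeq2 or limma-voom, and 2 were lower at an unadjusted p of 0.05. Cdc6 had 17.3, 31.3, 23.7, 18.4 and 21.1 CPM in mutants 1 to 5, and 19.9 to 49.3 CPM with a median of 32.8 CPM in controls. Control 2 lay below 3 of the 5 mutants, and mutant 2 also lay above controls 1 and 5 (log2 fold change -0.64, SE 0.252, edgeR adjusted p = 0.196). Cdc6 shares 1528 bases at 95.2% identity with Gm9430, which itself had 3.22 CPM in mutants and 5.31 CPM in controls. Cdt1 averaged 40.4 ± 9.91 CPM in mutants and 56.1 ± 10.6 CPM in controls. Orc1 was among the faintest members, at 4.62 ± 3.53 CPM in mutants and 6.37 ± 3.00 CPM in controls.

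CDC45 and the GINS subunit GINS2 complete the active helicase, and MCM10 is needed for it to start unwinding. None of these 3 genes passed by edgeR, with 2 lower at an unadjusted p of 0.05, while DESeq2 and limma-voom each called 1, Mcm10. Mcm10 had 24.6, 14.2, 13.1, 15.5 and 30.4 CPM in mutants 1 to 5, against 27.5 to 51.4 CPM with a median of 33.3 CPM in controls. Mutants 2, 3 and 4 were at about the same low level, and only mutant 5 reached into the control range. Its log2 fold change was -0.81 (SE 0.253, edgeR adjusted p = 0.0937), and without mutant 5 it passed, at -1.06 (edgeR adjusted p = 0.0203). Cdc45 averaged 39.5 ± 8.68 CPM in mutants and 58.7 ± 13.1 CPM in controls (log2 fold change -0.56, SE 0.190, edgeR adjusted p = 0.126). Gins2 had a log2 fold change of -0.30 with an SE of 0.253. The exons of Cdc45 overlap Ufd1, and those of Gins2 overlap Gse1 over 2758 bases, in each case from the opposite strand, which leaves both counts uncertain. The 3 genes together summed to 55.3 to 93.7 CPM in mutants and 97.3 to 124 CPM in controls.

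Deoxynucleotides come from ribonucleotide reductase, with the large subunit RRM1 and the S phase subunit RRM2, and from thymidylate synthase, the product of Tyms. Rrm1 (ENSMUSG00000030978, chromosome 7, 102441695 to 102469771, plus strand, GRCm38) had 273, 264, 264, 291 and 339 CPM in mutants 1 to 5. Controls ranged from 345 to 447 CPM with a median of 377 CPM. All mutants lay below all controls, with mutant 5 just under control 2. Rrm1 fell in the mutants, at 286 ± 31.4 CPM (SD, n = 5) against 387 ± 39.7 CPM (SD, n = 6) in controls (log2 fold change -0.42, SE 0.110, edgeR adjusted p = 0.0438). The call was lost in 8 of the 11 fits without 1 library, and remained only without control 2, control 5 or mutant 5, with log2 fold changes from -0.51 to -0.37 over the 11. With Gm42418 left out it was also lost (-0.40, edgeR adjusted p = 0.0521). Mutant 5 then lay above control 2, as it did by TMM-scaled CPM, and only Mcm3 kept the groups apart.

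Rrm2 and Tyms did not pass, although both were lower at an unadjusted p of 0.05. Rrm2 averaged 175 ± 20.5 CPM in mutants and 218 ± 30.3 CPM in controls (log2 fold change -0.30, SE 0.117), and Tyms 44.8 ± 6.73 CPM in mutants and 57.9 ± 6.81 CPM in controls (log2 fold change -0.35, SE 0.135). In both genes control 6 was the lowest control, at 165 and 44.9 CPM, and it was the only control that reached the mutant range. Per kilobase of annotated exon Rrm2 had the highest mean of the 32 genes in both groups, within the spread of Mcm5. It stood at 63.1 ± 7.38 CPM per kb in mutants and 78.5 ± 10.95 CPM per kb in controls. This rank depends on the annotation, with 2771 bases of exon for Rrm2 and 11012 for Rrm1, which had more CPM in both groups. The summed level of the 3 genes was 456 to 548 CPM in mutants and 638 to 717 CPM in controls. This was the only class of the 8 in which the groups stayed apart by library totals, by TMM-scaled CPM and without Gm42418.

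**Figure D4:**
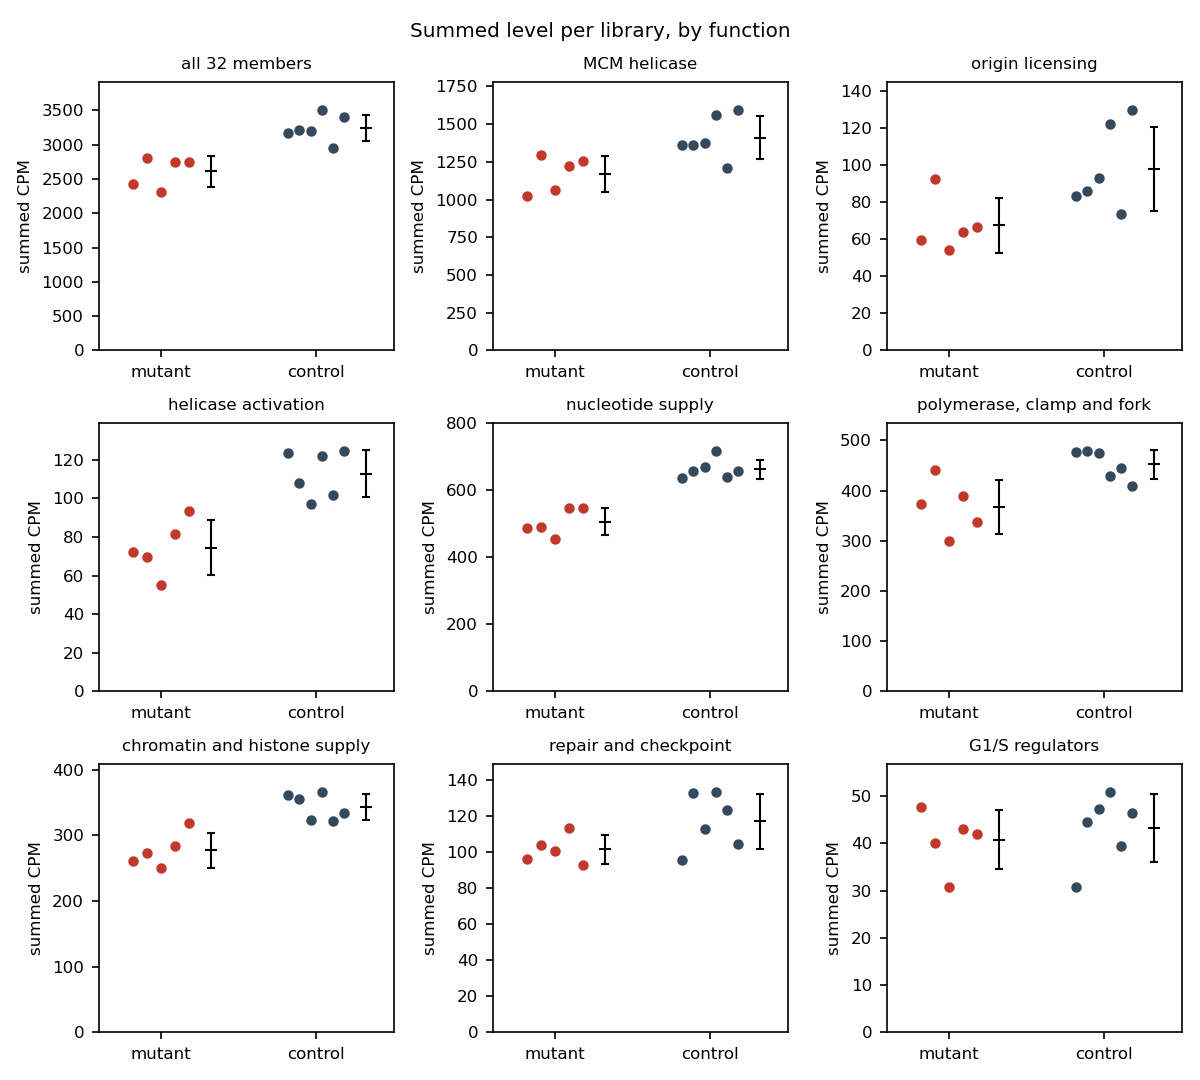
Summed CPM by library total of all 32 members and of each functional class; each point is a library, mutants left of controls, and the bar beside them gives the mean and SD (n = 5 and 6). The sum of all 32 members and the classes helicase activation, nucleotide supply and chromatin show no overlap here. Under the other scalings the sum of all 32 keeps a narrow gap, and of the classes only nucleotide supply does.

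Strand synthesis uses polymerase alpha (Pola1) with primase (Prim1), the sliding clamp PCNA, the clamp loader subunit RFC2, the single-strand binding subunit RPA2 and the flap endonuclease FEN1. None of these 6 genes passed by edgeR, and 2 were lower at an unadjusted p of 0.05, while DESeq2 and limma-voom each called 1, Rpa2. Rpa2 had 83.0, 98.3, 65.8, 75.1 and 90.2 CPM in mutants 1 to 5, and 91.0 to 131 CPM with a median of 117 CPM in controls. Only mutant 2 and control 5 crossed over (log2 fold change -0.46, SE 0.141, edgeR adjusted p = 0.0889). The difference was -0.22 among libraries without Y-linked counts and also -0.22 with the Y-linked level as a covariate (edgeR adjusted p = 0.726 and 0.727). Prim1 averaged 75.6 ± 13.7 CPM in mutants and 91.6 ± 7.89 CPM in controls, with 4 of 5 mutants below the lowest control. Pola1, on the X chromosome, spread widely in controls, from 19.1 to 75.5 CPM, and was at 27.1 to 54.5 CPM in mutants. Rfc2 had a log2 fold change of -0.17 with an SE of 0.145, and its exons overlap Lat2 on the opposite strand. Pcna averaged 42.5 ± 9.02 CPM in mutants and 55.0 ± 6.99 CPM in controls (log2 fold change -0.36, SE 0.158, edgeR adjusted p = 0.251), with its lowest value, 27.1 CPM, in mutant 5. Fen1 was the faintest member, at 3.69 ± 0.722 CPM in mutants and 4.09 ± 1.14 CPM in controls. Both Pcna and Fen1 have near-identical copies, so their levels are uncertain.

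New DNA is wrapped in histones by chromatin assembly factor 1, of which CHAF1B is a subunit, SLBP binds the ends of replication-dependent histone mRNAs, and UHRF1 and the helicase HELLS keep DNA methylation through replication. None of the 4 genes passed by edgeR, with 1 lower at an unadjusted p of 0.05, while DESeq2 called 0 and limma-voom 1, Uhrf1. Chaf1b had 73.9, 73.8, 82.2, 77.4 and 92.2 CPM in mutants 1 to 5, and 85.3 to 127 CPM with a median of 105 CPM in controls. Mutant 5 alone reached the control range, above control 5 (log2 fold change -0.40, SE 0.136, edgeR adjusted p = 0.126). Uhrf1 had 82.9, 95.9, 86.6, 94.2 and 166 CPM in mutants 1 to 5, and 126 to 161 CPM in controls. Mutants 1 to 4 lay below every control, and mutant 5 lay above every control. Its log2 fold change was -0.37 with an edgeR adjusted p of 0.312, and -0.62 with an edgeR adjusted p of 0.00605 without mutant 5. The pseudogene Gm5648 matches 1590 bases of Uhrf1 at 98.3% identity and held 32.3 CPM in mutants and 40.7 CPM in controls.

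Slbp averaged 61.9 ± 15.2 CPM in mutants and 77.3 ± 10.9 CPM in controls, with mutant 5 lowest at 37.4 CPM. Hells had the higher mean in mutants but did not pass, at 30.7 ± 6.14 CPM in mutants and 21.8 ± 12.2 CPM in controls (log2 fold change 0.51, SE 0.294, edgeR adjusted p = 0.403). Its 5 mutants spanned 23.9 to 37.1 CPM, whereas control 2 alone reached 44.6 CPM and control 6 lay at 10.9 CPM. Without control 2 the log2 fold change was 0.84 (edgeR adjusted p = 0.0620).

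Uracil glycosylase (Ung), the checkpoint mediator claspin (Clspn), the deubiquitinase USP1 and DTL, which directs CDT1 to degradation, act in repair and checkpoint control. None of the 4 passed by edgeR, DESeq2 or limma-voom, and 1 was lower at an unadjusted p of 0.05. Clspn had 9.42, 11.3, 11.001, 6.88 and 7.79 CPM in mutants 1 to 5, and 7.90 to 23.6 CPM with a median of 16.2 CPM in controls. The mutants lay close together and the controls spread widely, with control 1 inside the mutant range and control 6 at its upper edge (log2 fold change -0.76, SE 0.279, edgeR adjusted p = 0.160). Ung, Usp1 and Dtl had log2 fold changes of -0.10, -0.07 and -0.15 with SEs of 0.204, 0.179 and 0.178. Among libraries without Y-linked counts they stood at 0.16, -0.26 and -0.48, so the direction of Ung turned.

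Cyclins E1 and E2 drive the step from G1 into S, and E2F8 represses E2F targets late in S phase. None of the 3 genes passed by edgeR, DESeq2 or limma-voom, and 0 were past an unadjusted p of 0.05. Ccne1 averaged 19.7 ± 7.83 CPM in mutants and 19.1 ± 6.04 CPM in controls, and Ccne2, whose exons overlap Ints8 on the opposite strand, 15.3 ± 2.78 CPM in mutants and 13.8 ± 3.46 CPM in controls. E2f8 had 9.73, 4.90, 3.81, 10.4 and 0 CPM in mutants 1 to 5, and 6.27 to 15.3 CPM with a median of 9.08 CPM in controls. Mutant 5 had 0 E2f8 counts of 12710673, which allows up to 0.236 CPM for counting error only (log2 fold change -0.84, SE 0.633, edgeR adjusted p = 0.545). Without mutant 5 the log2 fold change of E2f8 was -0.53. The summed level of the class was 30.8 to 47.8 CPM in mutants and 30.9 to 50.8 CPM in controls, the class with the smallest relative difference between the means, -5.77%.

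**Figure D5:**
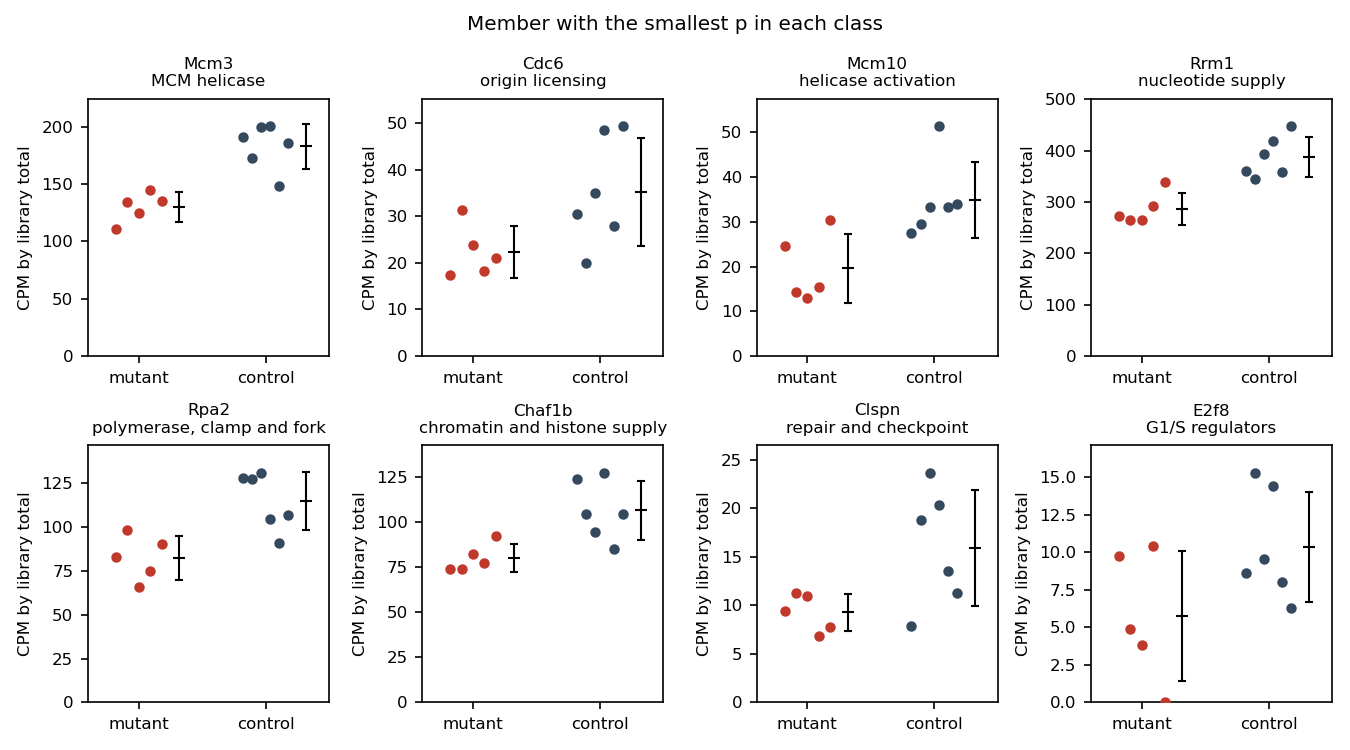
CPM by library total of the member with the smallest p in each of the 8 functional classes; points are libraries, mutants left of controls, with mean and SD beside them (n = 5 and 6). Mcm3 and Rrm1 show no overlap, whereas mutant 5 reaches into the control range for Mcm10 and Chaf1b, mutant 2 for Rpa2 and 3 mutants for Cdc6.

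A further 62 genes of replication were listed for the same pathway. Of these 62, Tipin was lower, 0 were higher and 61 did not pass by edgeR, with 11 lower and 1 higher at an unadjusted p of 0.05, and DESeq2 and limma-voom called 4 and 2 lower and 0 higher. Their median log2 fold change was -0.18, and 48 of 62 were negative. Tipin, which encodes a fork protection protein and partner of Timeless, had 62.5 to 75.1 CPM in mutants and 81.8 to 119 CPM in controls (log2 fold change -0.52, SE 0.130, edgeR adjusted p = 0.0349). Its call was lost in 7 of the 11 fits without 1 library. Dscc1, Rpa1 and Pold2, a clamp loader factor, the largest RPA subunit and a polymerase delta subunit, did not pass, at log2 fold changes of -0.85, -0.41 and -0.52 (edgeR adjusted p = 0.0987, 0.0997 and 0.102). Of 36 genes listed for mitosis, not all of which act in mitosis alone, 4 fell, 0 were higher and 32 did not pass by edgeR. At an unadjusted p of 0.05, 19 were lower and 0 higher, and their median log2 fold change was -0.52. DESeq2 called 9 lower and limma-voom 8, and neither called any higher. Over all genes, edgeR called 1.74% lower and had 8.35% lower at an unadjusted p of 0.05, DESeq2 called 3.31% lower and limma-voom 2.66%. Kif2c, a microtubule depolymerase, averaged 26.4 ± 6.11 CPM in mutants and 47.5 ± 8.06 CPM in controls (log2 fold change -0.83, edgeR adjusted p = 0.0128), and its call held when any single library was left out. The mitotic kinase gene Cdk1 had a log2 fold change of -0.74 (edgeR adjusted p = 0.0241), the gene of its partner cyclin B1, Ccnb1, one of -0.83 (edgeR adjusted p = 0.0309) and Cdca3 one of -0.88 (edgeR adjusted p = 0.0250). When single libraries were left out, the call of Cdk1 was lost in 5 of 11 fits, that of Ccnb1 in 7 and that of Cdca3 in 6. Among libraries without Y-linked counts 0 mitosis genes and 0 of the 62 replication genes passed by edgeR, with Kif2c at -0.57 (edgeR adjusted p = 0.395) and Tipin at -0.64 (edgeR adjusted p = 0.106). The difference between the replication and mitosis medians was not tested.

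Of the cell type markers only Gad2, Gpr17 and Hopx passed by edgeR, and every summed level given below overlapped between the groups. Over all genes tested edgeR called 1.74% lower and 2.68% higher, and 17.3% passed an unadjusted p of 0.05 in either direction. DESeq2 called 3.31% lower and limma-voom 2.66%, and their shares of genes called higher are not given here. Of 12 young neuron markers 1 was higher and 0 lower by edgeR, with 5 higher and 1 lower at an unadjusted p of 0.05, and DESeq2 and limma-voom called 3 and 4 higher. Gad2, which encodes a GABA-synthesizing enzyme, had 687, 643, 754, 725 and 523 CPM in mutants 1 to 5 and 212 to 419 CPM in controls, with no overlap. It rose in the mutants (log2 fold change 1.01, SE 0.148, edgeR adjusted p = 0.000894). The 12 markers summed to 9005 to 10010 CPM in mutants and 8428 to 10453 CPM in controls, so their summed level overlapped. The 7 oligodendrocyte precursor markers summed to 588 to 983 CPM in mutants and 821 to 2372 CPM in controls, with control 6 highest, and all 7 had a negative log2 fold change. The median log2 fold change of these 7 was -1.25. At an unadjusted edgeR p of 0.05, 5 of them were lower and 0 higher, where 8.35% of all genes tested were lower. DESeq2 called 4 of the 7 lower and limma-voom 1, and neither called any higher. By edgeR's adjusted p only Gpr17, a receptor gene of early oligodendrocyte cells, fell (log2 fold change -1.44, SE 0.350, edgeR adjusted p = 0.0295), a call lost in 5 of 11 fits without a single library. The 8 radial glia and astrocyte markers summed to 728 to 1592 CPM in mutants and 741 to 1639 CPM in controls. Of these 8, 6 had a negative log2 fold change and 2 a positive one, with a median of -0.22. Hopx, a homeodomain protein gene and 1 of the 2, rose, at 3.85, 4.80, 4.14, 10.6 and 5.19 CPM in mutants 1 to 5 against 0.790 to 1.99 CPM in controls (log2 fold change 2.17, SE 0.397, edgeR adjusted p = 0.00458). Among libraries without Y-linked counts Gad2 passed (log2 fold change 0.69, edgeR adjusted p = 0.0379). Hopx (2.645, edgeR adjusted p = 0.0668) and Gpr17 (-0.75, edgeR adjusted p = 0.247) did not. The 10 transit-amplifying progenitor markers summed to 363 to 469 CPM in mutants and 359 to 484 CPM in controls, and none passed by edgeR, with 2 lower and 1 higher at an unadjusted p of 0.05, while DESeq2 called 2 lower and 1 higher and limma-voom 1 lower and 1 higher. The part of any of these cell types in the replication genes was not tested. Control 6 had the highest oligodendrocyte precursor sum, and mutant 5 stood apart in Ttr and Gm42418. Without both of these libraries, 4 members were called lower by edgeR, Mcm3, Rrm1, Mcm10 and Uhrf1. In that fit 1.62% of all genes were called lower, and the median of the members was -0.29.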

How the data were processed

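The table deposited by the authors holds raw read counts per Ensembl gene for 11 libraries of total RNA, prepared by an Illumina TruSeq protocol per the labels' protocols. Per the submitters' processing notes, reads were handled with TopHat2 2.0.13 and featureCounts 1.4.6 on mm10, also written GRCm38. Not given in the sources used here are the annotation release, the strand setting and how multiply aligned reads were counted. Symbols, coordinates and exon lengths came from GENCODE M21 (GRCm38), with 37693 of 39179 identifiers matched, and promoters from RefSeq (GRCm38.p6).

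CPM values are counts per 1000000 of the library total. The test was that of edgeR 4.0.16, run in R 4.3.3 (filterByExpr, TMM, robust quasi-likelihood fit, Benjamini-Hochberg over 14104 genes, threshold 0.05). SEs were derived from the F statistic. The scripts were checked on simulated counts of 14104 genes, of which 200 were changed. The test recovered 8.96% of 1.5-fold, 46.3% of 2-fold and 69.7% of 4-fold changes, and 7 of its 90 calls were unchanged genes. A gene that did not pass may therefore still differ. Alternatives used DESeq2 1.42.0, limma 3.58.1, other filters, scalings and covariates, and left out libraries. Copies of the members were searched among GENCODE transcripts with blastn 2.17.0 (at least 95% identity over at least 200 bases). Exon overlaps were listed for genes with a mean of at least 1 CPM.

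The members and gene lists were chosen with earlier results of these data known. Values by library are given for members past the threshold and for the member with the smallest p in each class. Of the other replication and mitosis genes, those past the threshold are named, and of the other replication genes also the 4 with the smallest p. The values of Uhrf1 by library, and the marker genes named, were chosen after their values were seen. No pair of replicate libraries agreed within sampling noise, since chi-square over its degrees of freedom was 13.7 or more. Protein sequences were not used here.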

Additional observations from a re-analysis of the deposited data

Results flagged for a closer look

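In 3 of 82 sets of libraries (the 32 members and 9 sums, in each group) a library stood far from the others of its group, where chance flags about 1 in 20. Uhrf1 in mutant 5 was at 166 CPM, against 82.9 to 95.9 CPM in the other 4 mutants. Mcm10 in control 4 was at 51.4 CPM, against 27.5 to 34.1 CPM in the other 5 controls. Tyms in control 6 was at 44.9 CPM, against 57.2 to 63.6 CPM in the other 5 controls.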

How the results depend on the processing

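The median of the replication genes stayed negative under every alternative run, whereas the calls changed. The median log2 fold change of the 32 members stayed between -0.37 and -0.25 over 23 alternatives, and the difference of the mean summed CPM (mutants minus controls, -631 CPM) between -688 and -557 CPM. The number of members called lower by edgeR was 2 in all libraries, where 1.74% of all genes were called lower. It was 0 without the gene filter (0.774% of all genes) and 0 with the Y-linked level as a covariate (0.468%). Among libraries without Y-linked counts it was 0 (0.456%), and without Gm42418 it was 1 (1.65%). In these settings, in that order, 13, 5, 7 and 13 members were lower at an unadjusted p of 0.05, where 6.55%, 5.15%, 4.97% and 7.93% of all genes were. The number called lower was 4 with DESeq2 (3.31% of all genes), 5 with limma-voom (2.66%) and 4 without control 6 and mutant 5 (1.62%). Over the 11 fits without 1 library it was from 0 to 4 (1.04% to 1.8%). No member was called higher in any of these. The title numbers did not pair the libraries (correlations of same-numbered deviations from -0.137 to 0.0207). With the replicate block, over libraries numbered 1 to 5, 0 members were called by edgeR, where 1.02% of all genes were called lower. At an unadjusted p of 0.05 the block left 12 lower, where 7.13% of all genes were. In the same libraries without the block, a fit chosen after seeing the data, 1 member was called, where 1.8% of all genes were called lower. Only 1 of these 10 libraries correlated best with its own number. The number of members without overlap between groups, all lower in mutants, was 2 by library totals (2.32% of all genes tested were wholly lower), 1 by TMM-scaled CPM (2.03%), 1 without Gm42418 (2.23%), 9 among libraries without Y-linked counts (10.5%), 8 without control 6 and mutant 5 (4.22%) and from 2 to 5 without 1 library (2.73% to 3.37%). Of 736 log2 fold changes of single members under alternatives, 695 kept their direction and their side of the threshold, 24 lost a call, 10 gained one and 7 changed sign, all of genes that were not called. Only Mcm3 and Rrm1 had a call to lose, and they kept it in 13 and 9 of the 23 alternatives. Ung was at 0.13 with the Y-linked covariate, 0.16 among libraries without Y-linked counts, and from -0.19 to 0.00993 without 1 library. Over the fits without 1 library Pola1 ranged from -0.32 to 0.0234 and Ccne1 from -0.15 to 0.23. At an unadjusted p of 0.05, 1 member was higher without control 2 and 1 with limma-voom. The cause of these changes was not tested. Depth limits faint members, such as Fen1, with 447 counts over all libraries, and E2f8, with 0 counts in mutant 5.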

Other observations

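Near-identical copies bear on how several members can be read. The pseudogene Pcna-ps2 matches 781 bases of Pcna at 99.2% identity and was itself counted at 52.7 ± 9.71 CPM in mutants and 72.7 ± 9.40 CPM in controls, above Pcna in both groups (log2 fold change -0.45, SE 0.144, edgeR adjusted p = 0.0997). Pcna and Pcna-ps2 together came to 63.5 to 108 CPM in mutants and 103 to 151 CPM in controls. Fen1, at 1.52 CPM per kb of exon in mutants and 1.69 CPM per kb in controls, shares 1911 identical bases with Gm10143, which held 0.882 CPM in mutants and 0.958 CPM in controls. Usp1 matches Gm5841 over 2178 bases at 97.9% identity, and Slbp matches Gm8396 over 828 bases at 95.5% identity, where Gm8396 held 11.2 CPM in mutants and 13.7 CPM in controls. How reads that align to both a gene and its copy were counted is not given in the sources used here, and the effect on these members was not tested.

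Mutant 5 held the highest Uhrf1 and Ccne1 values of all 11 libraries and the lowest value of 6 members, among them Pcna, Slbp and E2f8.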
